A study of Caenorhabditis elegans with 12 samples.

Results

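Expression of 8 genes of the C. elegans intestine, picked by name from the 46926 genes of the counts table, was followed through 3 strains of whole worms. The 8 genes are elt-2, elt-7, ges-1, act-5, ifb-2, pho-1, pept-1 and erm-1, and each name matched 1 row in the Ensembl annotation of the WBcel235 genome. Poly-A RNA was sequenced in 12 libraries, 4 for each strain, from animals grown from purified eggs at 20 °C and labelled as larval stage 4. The TDP-43 strain carries a TDP-43 transgene driven by the snb-1 promoter, a neuronal promoter, and a dsRED marker driven by the myo-2 promoter of pharyngeal muscle. The TDP-43ΔNLS strain carries TDP-43 with the changes K82A, R83A and K84A behind the same snb-1 promoter, and a dsRED marker driven by the myo-3 promoter of body wall muscle. The wild type is the non-transgenic strain N2, which carries neither transgene nor marker. Strain background and marker therefore differ together with the transgene, and no label names a transgene expressed in the intestine. Separate cultures are not named for the 4 libraries of a strain. A p-value here therefore measures spread among these libraries only. How much of that spread is technical is not known, and marks of stage differed within each strain, as given below.

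The worm intestine is a tube of large polarized cells. GATA transcription factors switch on its genes in the embryo and keep them on for life, with elt-2 as the main factor of the differentiated gut and elt-7 as a partner with overlapping function. Its inner surface is a brush border of microvilli, built on actin, anchored to the membrane by ERM proteins and underlain by a sheet of intermediate filaments called the endotube. Enzymes and transporters at this surface and in the cells behind it digest and take up food.

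Total counts ranged from 20671982 to 26910097 per library. In each strain some libraries stood apart. The mean level of 20 oocyte and eggshell genes was 2.19 to 4.13 log2 CPM in TDP-43 replicate 4, TDP-43ΔNLS replicates 3 and 4 and wild type replicate 4, and 8.26 to 9.60 in the other 8 libraries (CPM, counts scaled to a common library size). Those 4 libraries held 1.24 to 481 CPM of col-19, a collagen of the adult cuticle, against 1569 to 3314 in the remaining 8, and 3.16 to 83.4 CPM of the yolk gene vit-2, against 1555 to 3978. For mlt-10, a gene of the molting cycle, they held 65.9 to 180.2 CPM, against 7.95 to 63.1 in the remaining 8, although all animals carry the same stage label. The first principal component held 69.6% of the variance. Reads over T10H9.10, a short non-coding gene upstream of snb-1, were found at 1.26 to 3.11 CPM in TDP-43 and 1.15 to 7.09 CPM in TDP-43ΔNLS libraries and at 0 in all wild type libraries. No member of any marker list was at 0 in all libraries. Summed levels in TDP-43, TDP-43ΔNLS and wild type libraries were 12650 to 27610, 14940 to 24740 and 11670 to 19780 CPM for 8 body wall muscle genes. They were 363 to 1661, 626 to 1709 and 848 to 2341 CPM for 6 pharynx muscle genes, and 615 to 1241, 642 to 1496 and 754 to 1382 CPM for 8 neuronal genes. They were 1975 to 2819, 1118 to 3479 and 1317 to 2822 CPM for 8 epidermis and molt genes, 118 to 558, 6.57 to 443 and 25.9 to 396 CPM for 8 sperm genes, and 335 to 19380, 154.5 to 17560 and 179.5 to 18850 CPM for the oocyte genes.

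All 8 intestine genes were detected in every library, and all 8 passed the filter on low counts in which 16637 genes remained. Their depth differed widely: the smallest count was 21 for elt-7 (TDP-43ΔNLS replicate 2) and 65 for elt-2 (wild type replicate 3), against at least 3336 for act-5 and 4191 for erm-1. Levels of different genes were compared as CPM per kilobase of exon. The brush border actin act-5 was the highest, at 284 ± 134 CPM per kb (SD over 12 libraries). Next were the filament gene ifb-2 at 107 ± 48.95 and the membrane linker gene erm-1 at 100.3 ± 6.7. The acid phosphatase gene pho-1 followed at 23.3 ± 7.02, the peptide transporter gene pept-1 at 16.0 ± 6.03 and the esterase gene ges-1 at 9.18 ± 1.84. The transcription factor genes were lowest, elt-2 at 5.97 ± 3.65 and elt-7 at 3.36 ± 1.52 CPM per kb.

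The upper step of this order, act-5 above ifb-2, held in 12 of 12 libraries, with act-5 between 2.16 and 3.26 times as high per kb. By contrast ifb-2 and erm-1 could not be ordered: ifb-2 was higher in 4 of 12 libraries. The step from erm-1 to pho-1 separated the genes into 2 tiers whose ranges did not overlap, with a ratio of 3.08 to 6.77. Below it, pho-1 exceeded pept-1 and pept-1 exceeded ges-1 in 12 of 12 libraries, although the smallest ratios were 1.09 and 1.02. Of the last 2 steps, ges-1 exceeded elt-2 in 10 libraries and elt-2 exceeded elt-7 in 10.

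The transcription factor gene elt-2 (WBGene00001250, chromosome X, 10481240 to 10483441, plus strand) varied widely within the strains. It stood at 11.7, 6.07, 6.05 and 5.26 CPM in TDP-43 replicates 1 to 4, at 5.01, 4.87, 19.3 and 20.4 in TDP-43ΔNLS, and at 10.5, 6.80, 3.40 and 12.2 in wild type. Within each strain the highest library was at least 2 times the lowest, and the 3 groups overlapped. The 3 highest values came from libraries low in oocyte transcripts, but TDP-43 replicate 4, which is also low in them, was the lowest of its own strain.

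Its partner elt-7 (WBGene00015981, chromosome V, 4770670 to 4773086, plus strand) was at 2.74, 1.71, 1.53 and 2.19 CPM in TDP-43, 2.43, 0.859, 4.00 and 5.48 in TDP-43ΔNLS, and 3.77, 3.83, 2.30 and 3.09 in wild type. Of the TDP-43 values, 3 lay below all wild type values and 1 above the lowest of them. TDP-43ΔNLS held both the lowest and the highest of the 12 values, a range of 6.38-fold.

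Among the genes of digestion and uptake, ges-1 (WBGene00001578, chromosome V, 1427653 to 1432137, minus strand), an esterase long used as a marker of gut fate, was the most even. It was at 15.8, 14.5, 11.6 and 17.2 CPM in TDP-43, 14.5, 13.7, 18.98 and 16.2 in TDP-43ΔNLS, and 23.7, 17.3, 12.5 and 16.1 in wild type. One wild type library was above all others, and the remaining 11 lay between 11.6 and 18.98.

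The intestinal acid phosphatase gene pho-1 (WBGene00004020, chromosome II, 5233156 to 5235846, minus strand) was at 29.2, 40.8, 26.3 and 22.5 CPM in TDP-43, 36.1, 30.2, 44.9 and 47.6 in TDP-43ΔNLS, and 53.6, 28.5, 20.2 and 42.2 in wild type. Wild type spanned the whole range of the other strains. Of its exons, 7.94% overlap those of EGAP2.1 on the other strand, and whether counting used strand is not given in the sources used here. EGAP2.1 itself was at 4.404 to 11.5 CPM.

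The gene of the apical oligopeptide transporter, pept-1 (WBGene00003877, chromosome X, 6456872 to 6461767, plus strand), was at 43.3, 36.98, 26.7 and 37.9 CPM in TDP-43, 52.1, 22.3, 56.1 and 51.5 in TDP-43ΔNLS, and 82.7, 48.4, 24.2 and 53.6 in wild type. All 4 TDP-43 values were below 3 of the 4 wild type values, and the remaining wild type value was lower than any of them.

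For the brush border itself, act-5 (WBGene00000067, chromosome III, 13604412 to 13606066, minus strand), which encodes the actin of the microvilli, was at 365, 279, 217 and 256 CPM in TDP-43, 277, 203, 733 and 475 in TDP-43ΔNLS, and 525, 285, 174 and 531 in wild type. Wild type held a high and a low pair, and the TDP-43 values lay above its lowest library and below its high pair. In TDP-43ΔNLS the 2 libraries low in oocyte transcripts were above the other 2.

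The endotube gene ifb-2 (WBGene00002054, chromosome II, 5750188 to 5754140, plus strand) followed the same course, at 189, 138, 128 and 179 CPM in TDP-43, 177, 131, 405 and 282 in TDP-43ΔNLS, and 242, 145, 99.6 and 333 in wild type. Here too the TDP-43 libraries lay inside the wild type range, above its lowest library and below its 2 highest.

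The ERM gene erm-1 (WBGene00001333, chromosome I, 5284026 to 5291604, minus strand), which links actin to the apical membrane in the gut and also in the excretory canal and other epithelia, was nearly level. It was at 261, 271, 221 and 246 CPM in TDP-43, 247, 231, 250.1 and 243 in TDP-43ΔNLS, and 266, 241, 219 and 237 in wild type. Its highest library was 1.23 times its lowest. Its SD of 0.0966 on the log2 scale was larger than that of 0.0541% of the genes tested.

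**Figure D1:**
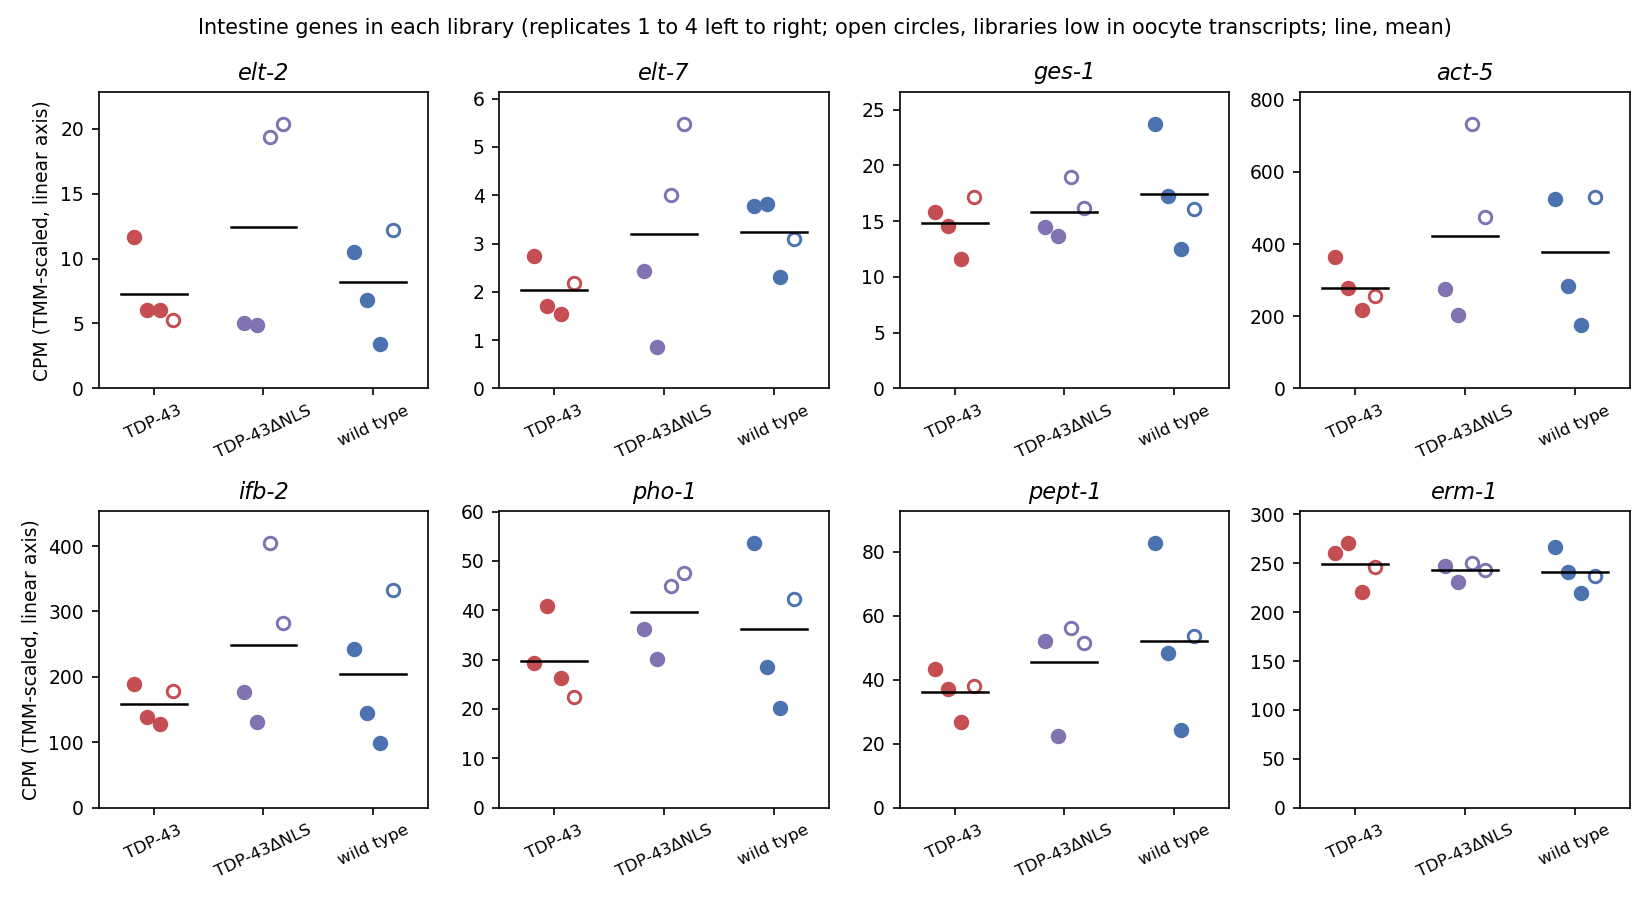
CPM of each of the 8 genes (linear axis) in TDP-43, TDP-43ΔNLS and wild type libraries, replicates 1 to 4 from left to right, with the mean of each group as a line and open circles for the 4 libraries low in oocyte transcripts. The 2 highest libraries of elt-2 are TDP-43ΔNLS replicates 3 and 4, and erm-1 stays between 219 and 271 CPM.

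TDP-43 against wild type asked whether gut transcripts differ in animals with the unaltered protein in neurons. The point estimates of 7 genes were negative and that of erm-1 positive. Of the 8, 0 passed the test, against 0.00601% (1 gene, zig-2, named after its values were seen) of all genes tested, of which 304 had an unadjusted p under 0.05. In 0 of the 8 were the groups without overlap, against 1.65% of all genes. Counts of whole worms cannot tell apart the number of gut cells, RNA per gut cell and the share of RNA from other tissues. The estimates furthest from 0 were those of elt-7, with means of 2.04 ± 0.543 CPM in TDP-43 and 3.25 ± 0.715 in wild type, and pept-1, with 36.2 ± 6.93 and 52.2 ± 24.1 CPM (SD, n = 4). For elt-7 the log2 fold change was -0.67 ± 0.50 (SE, adjusted p = 0.9999 in edgeR's quasi-likelihood test) and its 95% interval ran from -1.77 to 0.43. For pept-1 it was -0.53 ± 0.39 (adjusted p = 0.9999), with an interval of -1.38 to 0.32. In the same test act-5 had -0.44 ± 0.43, ifb-2 -0.37 ± 0.41, pho-1 -0.28 ± 0.33, ges-1 -0.24 ± 0.27 and elt-2 -0.18 ± 0.57, and erm-1 had 0.051 ± 0.15. The interval of erm-1, from -0.27 to 0.37, spanned a 1.2-fold lower to a 1.29-fold higher level in TDP-43, and that of elt-2 a 2.69-fold lower to a 2.1-fold higher one.

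DESeq2 called 21 genes here, none of them among the 8. The median of the 8 was -0.33, against 0.016 for all genes, and -0.12 without the 4 libraries low in oocyte transcripts. Without them elt-2 turned to 0.22 ± 0.42, and act-5, ifb-2 and pho-1 moved to -0.17, -0.071 and -0.063. The estimates of elt-7, pept-1 and ges-1 did not shrink in this way, at -0.71 ± 0.47, -0.51 ± 0.44 and -0.33 ± 0.27, and erm-1 was at 0.073 ± 0.16. Markers of some other tissues had negative estimates too, though 0 passed: all 6 pharynx muscle genes were below 0 (median -0.72) and all 8 neuronal genes (median -0.26). Without the 4 libraries these medians were -1.05 and -0.32. Further lists were mostly positive over all 12 libraries: 19 of 20 oocyte genes, 8 of 9 sperm gene rows, 7 of 8 epidermis and molt genes and 6 of 8 body wall muscle genes. Without the 4 libraries 3 of 8 epidermis and molt genes and 2 of 8 body wall muscle genes were positive. The part of these tissues in the gut estimates was not tested.

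TDP-43ΔNLS against wild type set the altered protein against N2, with the same wild type libraries as above. Of the 8 estimates, 5 were positive and 3 negative. Of the 8 genes 0 passed, against 0.0% of all genes, of which 241 reached an unadjusted p below 0.05 and DESeq2 called 16. Groups without overlap were found in 0 of the 8, against 1.32% of all genes. Means were 12.4 ± 8.62 CPM in TDP-43ΔNLS and 8.22 ± 3.92 in wild type for elt-2, and 249 ± 122 and 205 ± 104 for ifb-2 (SD, n = 4). On the log2 scale elt-2 differed by 0.59 ± 0.57 (SE, 95% interval -0.66 to 1.84, edgeR adjusted p = 0.9999) and ifb-2 by 0.28 ± 0.41 (-0.62 to 1.18, adjusted p = 0.9999). The remaining estimates lay closer to 0: act-5 at 0.16 ± 0.43, pho-1 at 0.14 ± 0.33, erm-1 at 0.011 ± 0.15, elt-7 at -0.025 ± 0.50, ges-1 at -0.14 ± 0.27 and pept-1 at -0.20 ± 0.39.

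TDP-43ΔNLS holds 2 libraries low in oocyte transcripts and wild type 1. Without the 4 such libraries all 8 estimates were negative, where 49.2% of all genes were. Their median was -0.37, against 0.011 for all genes, and elt-2 turned to -0.46 ± 0.48 and act-5 to -0.42 ± 0.40. The estimate of elt-7 became -0.97 ± 0.54 (interval -2.17 to 0.24, adjusted p = 0.8505). The estimates for elt-2, act-5, ifb-2, pho-1 and erm-1 were thus positive with these libraries in the fit and negative without them. Without them all 8 neuronal genes (median -0.28) and all 6 pharynx muscle genes (-0.41) were negative too, though 0 passed. So were 7 of 8 body wall muscle genes (-0.48). Positive were 20 of 20 oocyte genes (0.31), 5 of 9 sperm gene rows and 3 of 8 epidermis and molt genes. The part of these tissues was not tested.

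The altered protein was set against the unaltered one in TDP-43ΔNLS against TDP-43. Here 7 estimates were positive and that of erm-1 negative. Of the 8 genes 0 passed, against 0.0% of all genes, of which 427 reached an unadjusted p below 0.05 and DESeq2 called 8. Groups without overlap were found in 0 of the 8, against 1.77% of all genes. Means of act-5 were 422 ± 237 CPM in TDP-43ΔNLS and 279 ± 62.7 in TDP-43, and those of ifb-2 249 ± 122 and 158 ± 29.8 (SD, n = 4). The log2 fold changes were 0.65 ± 0.41 for ifb-2 (SE, 95% interval -0.25 to 1.55), 0.60 ± 0.43 for act-5 (-0.35 to 1.54), 0.77 ± 0.57 for elt-2 (-0.48 to 2.03) and 0.64 ± 0.50 for elt-7 (-0.46 to 1.75), each with an edgeR adjusted p of 0.9984. Those of pho-1, pept-1, ges-1 and erm-1 were 0.42 ± 0.33, 0.33 ± 0.39, 0.096 ± 0.27 and -0.040 ± 0.15.

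Without the libraries low in oocyte transcripts the median of the 8 was -0.035, against 0.51 with them. Then elt-2 stood at -0.69 ± 0.48, elt-7 at -0.26 ± 0.54 and act-5 at -0.25 ± 0.40, and ifb-2 was at 0.024 ± 0.34. These fits rest on 2 TDP-43ΔNLS and 3 TDP-43 libraries. Over all 12 libraries the 6 pharynx muscle and 8 neuronal genes were all positive in this comparison as well, with medians of 0.46 and 0.36. Further lists went the other way: 0 of 20 oocyte genes, 0 of 9 sperm gene rows, 2 of 8 epidermis and molt genes and 1 of 8 body wall muscle genes were positive. Without the 4 libraries 18 of 20 oocyte genes (median 0.087), all 6 pharynx muscle genes (0.645) and 5 of 8 neuronal genes (0.053) were positive. Then 2 of 9 sperm gene rows, 2 of 8 epidermis and molt genes and 1 of 8 body wall muscle genes were positive. The part of these tissues was not tested.

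**Figure D2:**
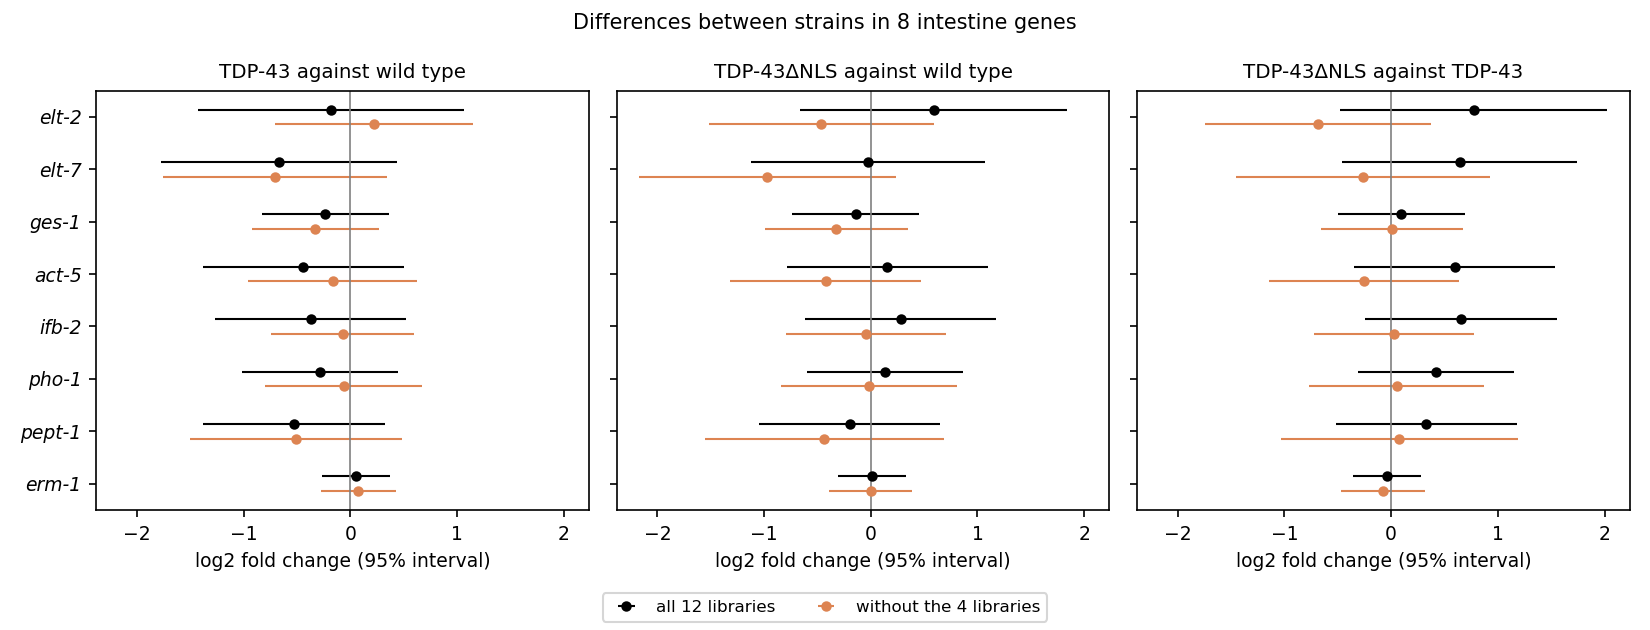
Log2 fold change of each gene with its 95% interval in the 3 comparisons, over all 12 libraries (black) and without the 4 libraries low in oocyte transcripts (orange). Every interval includes 0, and in both comparisons of TDP-43ΔNLS elt-2 and act-5 are on opposite sides of 0 in the 2 fits.

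Libraries of 1 strain differed widely in these genes. Taking each gene relative to its own mean over 12 libraries, the 8 genes averaged 0.665 on the log2 scale in TDP-43ΔNLS replicate 3, 0.548 in TDP-43ΔNLS replicate 4, 0.546 in wild type replicate 1 and 0.384 in wild type replicate 4. At the other end were wild type replicate 3 at -0.647, TDP-43ΔNLS replicate 2 at -0.592 and TDP-43 replicate 3 at -0.478, in which 0 of the 8 genes were above their own median. The lowest and the highest of the 8 libraries rich in oocyte transcripts were thus both wild type. Wild type replicate 3 held the lowest value of 5 genes (elt-2, act-5, ifb-2, pho-1 and erm-1), and wild type replicate 1 the highest of ges-1, pho-1 and pept-1.

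Among these 8 libraries, the 3 with an oocyte list level of at most 8.94 log2 CPM averaged -0.0179 to 0.546 in the intestine genes. The 5 with a level of 9.12 or more averaged -0.647 to -0.0921. This break was not set in advance. Within the 5 the averages did not fall steadily: TDP-43 replicate 2, the highest at 9.60, averaged -0.185, and TDP-43 replicate 3, at 9.12, averaged -0.478. Of the 4 libraries low in oocyte transcripts, 3 averaged 0.384 to 0.665 and TDP-43 replicate 4 averaged -0.226. The part of stage or of the amount of germ line RNA in these differences was not tested.

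**Figure D3:**
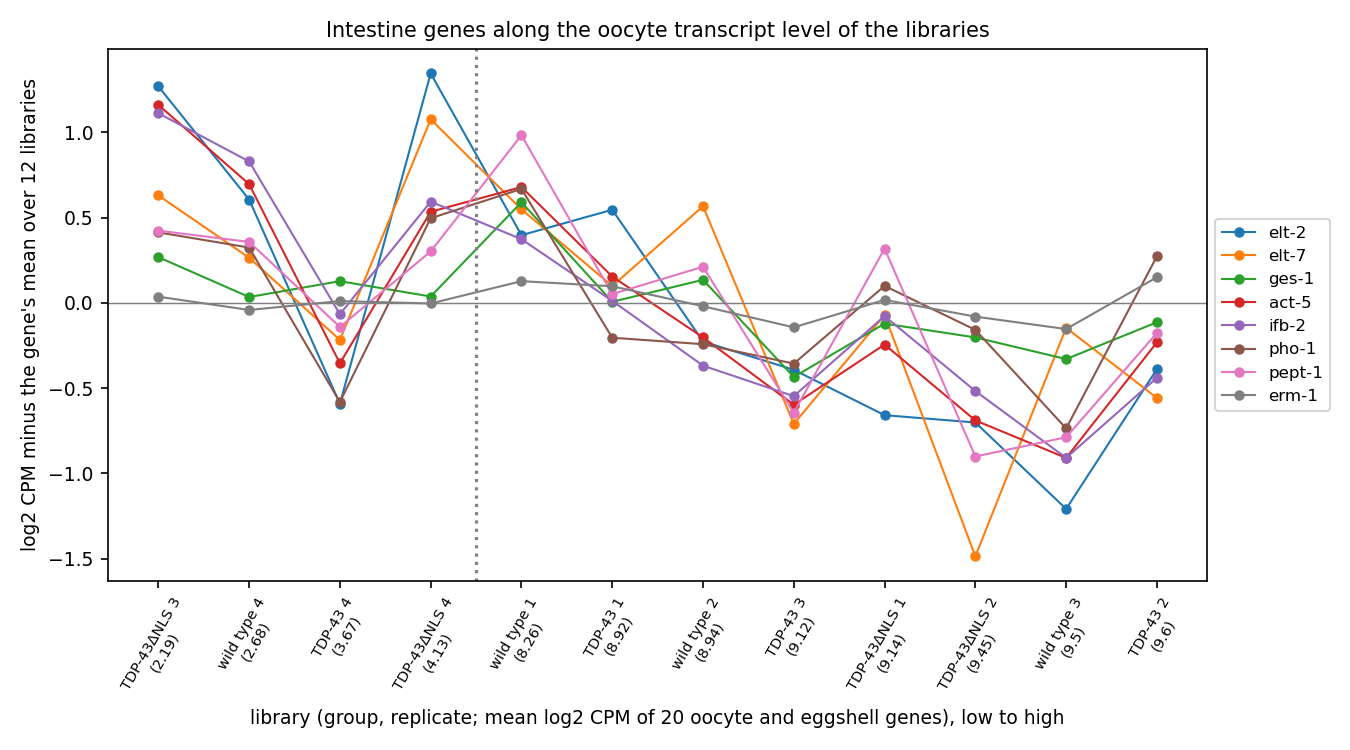
Log2 CPM of each gene minus its mean over 12 libraries, with the libraries ordered by the mean log2 CPM of 20 oocyte and eggshell genes (in brackets), low to high. The dotted line separates the 4 low libraries, among which TDP-43 replicate 4 lies below the other 3 for 6 of the 8 genes.

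The 8 genes often rose and fell together but by different amounts. All 8 were above their own median in wild type replicate 1 and TDP-43ΔNLS replicate 3, and 0 were in the 3 lowest libraries named above. Likeness was measured as the root mean square (RMS) difference of centred log2 CPM over 12 libraries, so that 0 means the same pattern. This distance also grows where 2 genes move in the same direction by unlike amounts, so it does not measure shared direction alone. The nearest pair was act-5 and ifb-2, at 0.171: the CPM ratio of microvillus actin to endotube filament stayed between 1.44 and 2.02 in TDP-43, 1.56 and 1.81 in TDP-43ΔNLS, and 1.60 and 2.17 in wild type. The next was ges-1 and erm-1 at 0.212, the pair with the smallest spread of level. The regulator elt-2 was nearer to act-5 (0.329) and ifb-2 (0.378) than to elt-7 (0.564), and furthest from erm-1 (0.75). The 2 GATA factors kept no steady ratio to each other: elt-2 was 2.40 to 4.25 times elt-7 in CPM in TDP-43, 2.06 to 5.67 times in TDP-43ΔNLS, and 1.48 to 3.94 times in wild type.

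The ratio of elt-2 to ges-1, a known target gene of GATA factors in the gut, ran from 0.306 to 0.738 in TDP-43, 0.347 to 1.26 in TDP-43ΔNLS and 0.272 to 0.755 in wild type. It moved 4.64-fold over all libraries while ges-1 itself moved 2.04-fold.

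**Figure D4:**
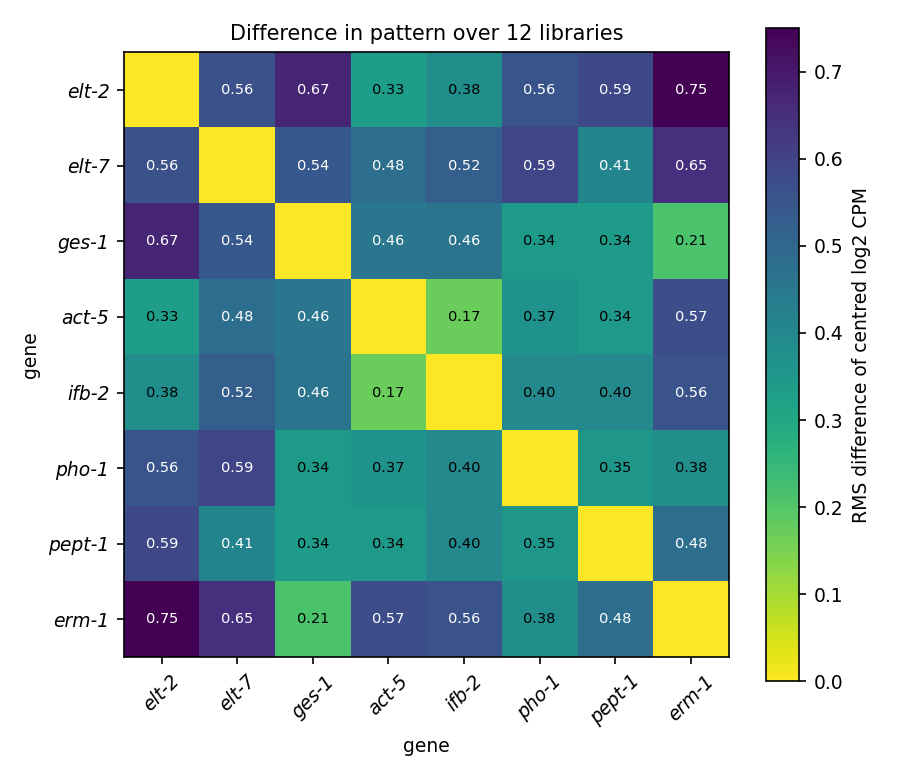
RMS difference of centred log2 CPM over 12 libraries for each pair of the 8 genes. A low value (yellow) means a pattern alike in direction and in size. The pair act-5 and ifb-2 has the lowest value, 0.17, and elt-2 and erm-1 the highest, 0.75.

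Of all other genes with a mean of at least 5 CPM, the 5 nearest to elt-2 were F35E12.9 (RMS 0.249), lmp-2 (0.265), nipi-3 (0.279), Y17G7B.8 (0.29) and pals-23 (0.294). The nearest of the other 7 intestine genes was act-5, at 0.329. Other genes also lay nearer to act-5 and to ifb-2 than the 0.171 between these 2: C12D12.1 at 0.0906 from act-5 and R09H10.5 at 0.127 from ifb-2. The nearest genes of so large a set are likely to lie closer than the nearest of 7, so nothing is drawn from these differences. The endotube gene ifc-2 was second nearest to ifb-2 (0.148), the aspartyl protease gene asp-1 the third nearest to pept-1 (0.199) and the proton pump gene vha-6 the fourth nearest to pho-1 (0.23). These 3 genes were picked out after their values were seen.

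Other genes with a role in the gut were read from lists that are not limited to genes confined to this tissue. Of these genes, 0 passed the test in any comparison. Of 6 further transcription factor genes, 3 passed the filter on low counts. The embryonic endoderm genes end-1, end-3 and med-1 did not, with at most 15 counts in any library. All 3 that remained (pqm-1, elt-4 and med-2) had negative estimates in TDP-43 against wild type, with a median of -0.63, and of -0.37 without the 4 libraries low in oocyte transcripts. Of these genes med-2 had only 0 to 19 counts per library and elt-4 3 to 42. The first median is the estimate of med-2 itself, -0.625 ± 0.955 (SE). The zinc finger gene pqm-1 was at 36.95 ± 23.2 CPM in TDP-43ΔNLS, 18.5 ± 4.93 in TDP-43 and 29.7 ± 14.1 in wild type (SD, n = 4). Its log2 fold change of TDP-43ΔNLS against TDP-43 was 1.00 ± 0.50 (SE, edgeR adjusted p = 0.998), and -0.20 ± 0.39 without those libraries. The gut GATA factor gene elt-4 was at 0.157 to 1.71 CPM.

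The endotube list holds partners of ifb-2. Of its 8 genes, 7 were negative in TDP-43 against wild type (median -0.21, against 0.016 for all genes), 7 positive in TDP-43ΔNLS against wild type (median 0.38, all genes -0.0056) and 8 positive in TDP-43ΔNLS against TDP-43 (median 0.52, all genes -0.0049). The filament organizer gene ifo-1 was at 78.8 ± 71.0 CPM in TDP-43ΔNLS, 29.7 ± 7.94 in TDP-43 and 45.5 ± 37.99 in wild type, and its log2 fold change of TDP-43ΔNLS against TDP-43 was 1.41 ± 0.72 (SE, edgeR adjusted p = 0.998). The filament genes ifc-2 and ifd-1 had 0.53 ± 0.37 and 0.85 ± 0.65 there, and the kinase gene sma-5 0.44 ± 0.61 in TDP-43ΔNLS against wild type. Without the libraries low in oocyte transcripts the directions turned. Then 5 of 8 were positive in TDP-43 against wild type (median 0.079), and all 8 were negative in both comparisons of TDP-43ΔNLS, with medians of -0.28 against wild type and -0.37 against TDP-43. The estimate of ifo-1 between the transgenic strains became -0.42 ± 0.43.

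Microvillus and junction genes spread evenly about 0: 4 of 9 were positive in TDP-43 against wild type, 5 in TDP-43ΔNLS against wild type and 5 in TDP-43ΔNLS against TDP-43, with medians of -0.035, 0.040 and 0.053. The list joins genes of opposite course. In the 4 libraries low in oocyte transcripts par-3 was at 86.1 to 115.7 CPM, against 150.3 to 254.8 in the other 8, and pkc-3 and plst-1 were lower too. There dlg-1 was at 120.7 to 154.0 CPM, against 37.1 to 71.7, and eps-8 and let-413 were higher too. The part of gut and other tissues in these medians was not tested. The microvillus capping gene eps-8 had log2 fold changes of -0.35 ± 0.56, 0.28 ± 0.56 and 0.63 ± 0.56. The cadherin gene hmr-1 was at 264 ± 18.5 CPM in TDP-43, 274 ± 39.9 in TDP-43ΔNLS and 244 ± 37.3 in wild type.

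Of 12 genes of lumen uptake and digestion, 12 were negative in TDP-43 against wild type, with a median of -0.33 and a range of -0.60 to -0.11, where 48.1% of all genes were negative. Without the libraries low in oocyte transcripts 10 of 12 were negative, with a median of -0.39. The list was not alone in this, since the pharynx muscle and neuronal lists were one-sided in the same direction, as given above. Over all 12 libraries the oocyte, sperm, epidermis and molt, and body wall muscle lists were mostly positive. The aspartyl protease gene asp-1 was at 798 ± 219 CPM in TDP-43, 1067 ± 516 in TDP-43ΔNLS and 1213 ± 529 in wild type, and its estimate in TDP-43 was -0.60 ± 0.40 (SE, edgeR adjusted p = 0.9999). The sodium proton exchanger gene nhx-2 had -0.37 ± 0.38 and the inositol trisphosphate receptor gene itr-1 -0.28 ± 0.28. In TDP-43ΔNLS against TDP-43, 10 of 12 were positive (49.5% of all genes were), led by the metallothionein gene mtl-1 at 1.59 ± 0.72 (unadjusted p 0.0496, adjusted p = 0.998 in edgeR's test). CPM of mtl-1 was 12.7 ± 9.61 in TDP-43ΔNLS, 4.22 ± 3.77 in TDP-43 and 6.22 ± 2.76 in wild type. Without the libraries low in oocyte transcripts 7 of 12 were positive, with a median of 0.14 against 0.32 over all libraries, and mtl-1 was at 0.36 ± 0.58. The cathepsin gene cpr-6 had -0.40 ± 0.26 in TDP-43ΔNLS against wild type.

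The 6 gut granule genes went both ways, with medians of -0.18 in TDP-43 against wild type, 0.051 in TDP-43ΔNLS against wild type and 0.27 in TDP-43ΔNLS against TDP-43. Without the libraries low in oocyte transcripts both comparisons of TDP-43ΔNLS turned, to medians of -0.47 against wild type (5 of 6 negative) and -0.17 against TDP-43. The Rab GTPase gene glo-1 was at 2.70 ± 0.338 CPM in TDP-43, 5.38 ± 3.92 in TDP-43ΔNLS and 4.28 ± 2.02 in wild type, and glo-2 at 1.44 ± 0.229, 0.806 ± 0.62 and 0.903 ± 0.237 CPM (SD, n = 4).

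**Figure D5:**
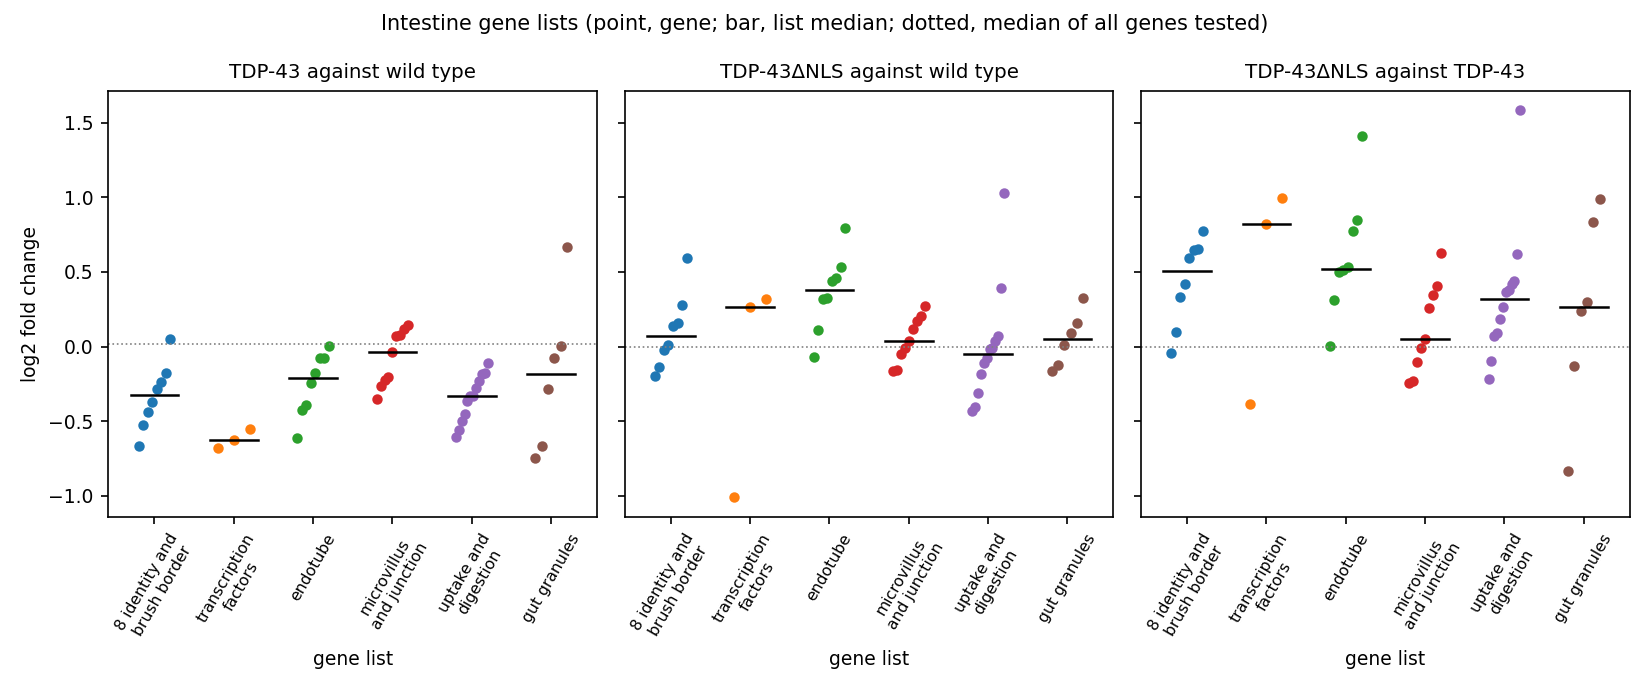
Log2 fold changes of the 8 genes and of 5 further gut lists in the 3 comparisons (point, gene that passed the filter; bar, list median; dotted line, median of all genes tested). In TDP-43 against wild type the uptake and digestion genes all lie below 0, and there the microvillus and junction list has the median nearest to the dotted line.

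The remaining actin genes act-1 to act-4 are close relatives of act-5, and how reads shared between copies were counted is not given in the sources used here, so the separate actin values are uncertain. Together they stood at 7642 to 14590 CPM in TDP-43, 5685 to 6935 in TDP-43ΔNLS and 8238 to 9923 in wild type. Their course differed from that of act-5. CPM of act-4 was 3474 to 3695 in TDP-43ΔNLS, below the 4282 to 8845 of TDP-43 and the 4644 to 6111 of wild type, where 1.77% and 1.32% of all genes did not overlap. Its log2 fold change was -0.59 ± 0.22 (SE) in TDP-43ΔNLS against wild type and -0.64 ± 0.22 against TDP-43, with adjusted p of 0.9999 and 0.9984 in edgeR's test, while the estimates of act-5 in these comparisons were 0.16 and 0.60. Without the libraries low in oocyte transcripts act-4 was at -0.55 ± 0.16 against wild type and -0.30 ± 0.16 against TDP-43. Most body wall muscle genes had estimates in the same direction, 6 of 8 negative against wild type (median -0.52) and 7 of 8 against TDP-43 (median -0.44). The myosin gene unc-54 went the other way, at 1.18 against wild type and 1.09 against TDP-43 (edgeR adjusted p of 0.9999 and 0.9984). The part of these muscle genes was not tested.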

How the data were processed

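The values are raw counts of reads for each gene, deposited by the authors as 1 table of 12 libraries whose columns were matched to samples by library name. Per the submitters' processing notes the build was WBcel235 and the tools included R 4.4.2, featureCounts 2.20.0 and STAR. No source used here gives the annotation release, the strand setting or the treatment of multi-mapping reads. Symbols, positions and exon lengths came from Ensembl release 115 of the same build, in which all 46926 identifiers were found. No sequence is printed.

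Counts were analysed in R 4.3.3 with edgeR 4.0.16: filterByExpr (minimum count 10), TMM scaling and a robust quasi-likelihood fit over all 12 libraries without covariates. P-values were adjusted by Benjamini-Hochberg over all 16637 genes, with a threshold of 0.05. Intervals are 95% intervals from the fitted change, its F statistic and degrees of freedom. CPM use TMM-adjusted library sizes, log2 CPM a prior count of 2, and CPM per kb the union of exons. A fixed rule named all 8 genes, up to 3 per further gut list and comparison with the lowest p, and the 5 genes nearest to elt-2. It also named T10H9.10 as a check of the transgenes and vit-2, col-19 and mlt-10 as marks of stage. Further genes were named outside this rule after their values were seen, among them par-3, pkc-3, plst-1, unc-54, cpr-1, cpr-4 and cpr-5. Alternatives included DESeq2 1.42.0 and limma 3.58.1 and are listed in the closing section.

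The members and lists were chosen with earlier results of these data known. The libraries low in oocyte transcripts are those with a mean under 6 log2 CPM over the oocyte list, a split made from expression. Fits without them or with a term for them are descriptions beside the designed test.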

Additional observations from a re-analysis of the deposited data

Results flagged for a closer look

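In 2 of the 24 sets of 4 libraries (8 genes in 3 groups), 1 library lay far from the other 3 by Dixon's ratio of gap to range, above its 95% critical value for 4 samples (0.874 and 0.866). Chance gives about 1 such set in 20. For elt-2 in TDP-43, replicate 1 at 11.67 CPM stood above the other 3, which were between 5.26 and 6.07 CPM. For pept-1 in TDP-43ΔNLS, replicate 2 at 22.34 CPM stood below the other 3, which were between 51.5 and 56.1 CPM. Without TDP-43 replicate 1 the log2 fold change of elt-2 in TDP-43 against wild type was -0.50, and without TDP-43ΔNLS replicate 2 that of pept-1 in TDP-43ΔNLS against TDP-43 was 0.55. Neither passed the test.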

How the results depend on the processing

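No value of the 8 genes passed the threshold in any of 549 refits (24 values under up to 23 alternatives), where the lowest adjusted p was 0.674. Directions held in 517 and turned in 32, always between values that did not pass. Under upper quartile scaling elt-7 turned to 0.11 in TDP-43ΔNLS against wild type and erm-1 to 0.045 in TDP-43ΔNLS against TDP-43, where a filter of 10 CPM in 4 libraries gave erm-1 0.017. That filter removed elt-7. With the oocyte list level as a covariate, elt-2 was at 0.074 in TDP-43 against wild type and act-5 at -0.095 in TDP-43ΔNLS against wild type, and a 2-level oocyte term gave act-5 -0.11. Without the 4 libraries low in oocyte transcripts, elt-2 turned to 0.22 in TDP-43 against wild type. In TDP-43ΔNLS against wild type it gave elt-2 -0.46, act-5 -0.42, ifb-2 -0.046, pho-1 -0.013 and erm-1 -0.00099, and in TDP-43ΔNLS against TDP-43 elt-2 -0.69, elt-7 -0.26 and act-5 -0.25. The cause was not tested.

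Leaving out 1 library at a time gave -0.50 to 0.071 for elt-2 in TDP-43 against wild type. In TDP-43ΔNLS against wild type the ranges were -0.42 to 0.29 for elt-7, -0.27 to 0.0073 for ges-1, -0.25 to 0.38 for act-5, -0.059 to 0.61 for ifb-2, -0.066 to 0.35 for pho-1, -0.44 to 0.077 for pept-1 and -0.035 to 0.031 for erm-1. In TDP-43ΔNLS against TDP-43 they were -0.0061 to 0.17 for ges-1 and -0.097 to 0.00030 for erm-1. Other estimates kept their sign but moved by over 1.5 times. In TDP-43 against wild type these were act-5 (-0.68 to -0.23), ifb-2 (-0.60 to -0.037), pho-1 (-0.48 to -0.033), pept-1 (-0.77 to -0.23) and ges-1 (-0.36 to -0.062), each lowest without wild type replicate 3 and nearest to 0 without wild type replicate 1 or 4, and erm-1 (0.0078 to 0.11). In TDP-43ΔNLS against wild type elt-2 ran from 0.24 to 0.85. In TDP-43ΔNLS against TDP-43 elt-2 ran from 0.42 to 1.09, elt-7 from 0.25 to 0.95, act-5 from 0.19 to 0.82, ifb-2 from 0.31 to 0.86 and pept-1 from 0.21 to 0.55, lowest without TDP-43ΔNLS replicate 4 for elt-2 and elt-7, replicate 3 for act-5 and ifb-2, and TDP-43 replicate 3 for pept-1. Over all genes, calls in TDP-43 against wild type numbered 1 in the designed fit and 0 to 1 without 1 library. They were 0 under upper quartile scaling and the 10 CPM filter, 21 with DESeq2, 18 with the oocyte covariate, 16 with the 2-level term and 9 without the 4 libraries. In TDP-43ΔNLS against wild type the designed 0 became 16, 10, 9 and 6 with the same 4 alternatives, and in TDP-43ΔNLS against TDP-43 it became 8, 3 and 1 with the first 3. DESeq2 size factors, no filter, limma voom and a fit of only the 2 groups compared did not move these counts.

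With the replicate number as a block, TDP-43 against wild type had 0 calls and no call of the 8 genes changed. Same-numbered libraries deviated together by more than 0.1 in 10 of 12 pairs (-0.629 to 0.825). Of 12 libraries, 4 correlated best with their own number. Replicate 4 was low in oocyte transcripts in every strain, as was TDP-43ΔNLS replicate 3. The labels name no pairs or batches, so the designed fit took none. Whether a number marks a shared batch was not tested. Low counts limit elt-7 (21 to 135 counts) and elt-2 (65 to 502) most.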

Other observations

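TDP-43 replicate 4, low in oocyte transcripts like wild type replicate 4 and TDP-43ΔNLS replicates 3 and 4, differed from those 3 in many gut transcripts. It lay below all 3 for 6 of the 8 intestine genes (elt-2, elt-7, act-5, ifb-2, pho-1 and pept-1), where 28.8% of all genes did. Of the further gut genes it lay below all 3 for 2 of 3 transcription factor, 6 of 8 endotube, 5 of 9 microvillus and junction, 7 of 12 uptake and digestion and 5 of 6 gut granule genes. It was not low throughout the gut genes: the cathepsin genes cpr-1, cpr-4, cpr-5 and cpr-6 were above all 3, with cpr-1 at 190.2 CPM, and the 12 uptake and digestion genes summed to 2014 CPM, against 2691 and 1795 in the TDP-43ΔNLS libraries and 2198 in the wild type library. Its summed level of the 8 genes was 766 CPM, against 1532 and 1142 CPM in the TDP-43ΔNLS libraries and 1228 CPM in the wild type library. In the same library all 4 of act-1 to act-4 were above the other 3, as were 6 of 8 body wall muscle and 6 of 8 epidermis and molt genes, where 35.9% of all genes were. This is 1 library, chosen after its values were seen, and no test was made.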
